A study of Mus musculus with 32 samples.

Results

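Mouse embryonic stem (ES) cells that leave the naive state in culture were profiled by RNA sequencing after 16 h and after 72 h, and the genes that changed over the intervening 56 h are described here. The comparison used 6 of the 32 libraries of the series, chosen by their labels alone: 3 libraries of RGd2 cells in N2B27 for 72 h (N72h) against 3 of RGd2 cells in N2B27 for 16 h (N16h). RGd2 is the genotype of the unmutated control cells, which carry a destabilised GFP reporter at the Rex1 (Zfp42) locus. N2B27 is a serum-free basal medium, here without the inhibitors of MEK and GSK3 that make up 2i and hold ES cells in the naive state. In each group replicates 1 and 2 came from the line labelled parental and replicate 3 from the line labelled clonal, a single clone of it, and values below are given in the order parental, parental, clonal. The 3 RGd2 libraries in 2i served as the earlier time point, and 3 from RGd2 cells kept in 2i to passage 5 served as another starting culture in an alternative.

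Naive pluripotency corresponds to the epiblast before implantation and rests on transcription factors such as NANOG, ESRRB, KLF4 and TFCP2L1. On inhibitor withdrawal these are lost while cells pass through a formative phase, marked by OTX2, POU3F1 and DNMT3B, in which they gain the capacity to respond to lineage cues. The embryonic counterpart then becomes a polarised epithelium, and later cells adopt neural, mesodermal or endodermal fates.

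The 6 libraries held between 16037731 and 46695457 gene counts, and the 2i libraries held 37042477, 36086319 and 5986857, the clonal one standing apart with a correlation of 0.973 to a parental one. RNA spike-ins took 1.37% ± 0.0422 of the counts at N16h and 1.41% ± 0.0835 at N72h (SD, n = 3 each), a difference that an exact permutation test did not separate from 0 (two-sided p = 0.5, where 0.1 is the smallest p this design allows). The study's methods describe expansion with a GSK3 inhibitor and LIF before 2i as routine for all lines, but its overview of the libraries marks that step for 2i and N16h and not for N72h. Time, any difference in earlier culture and experiment therefore cannot be told apart. The lines are separate cultures, plated in parallel for 2i and N16h, but whether the 2 parental libraries of a group were is not stated. The p-values for genes measure the spread between samples of a group, estimated over all 32 libraries, groups of mutant cells included. A fit to the RGd2 2i, N16h and N72h libraries alone gave 3138 genes higher and 2976 lower at N72h than at N16h. In bulk RNA, fewer cells of a type and less RNA per cell cannot be told apart.

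Levels are given as FPKM (gene counts scaled to exon length and to the gene count total of the library), and changes as log2 fold changes of N72h over N16h with their standard errors, scaled by the spike-ins. A gene was called where edgeR's adjusted p was below 0.05 and its mean FPKM reached 1 in either group. Of 18892 genes tested, 3844 rose (20.3%) and 3635 fell (19.2%), so that 7479 or 39.6% were called in either direction. The replicates of N16h and N72h did not overlap for 11927 genes (63.1%). The median gene changed by 0.01 on the log2 scale, and 51.4% of calls were rises. Each time point was also set against its own candidate starting culture, N72h against 2i at passage 5 and N16h against 2i. This gave 4837 genes higher and 1291 lower. From 2i to 2i at passage 5 the median gene differed by -0.37, and by -0.02 with scaling to all genes (TMM). Values in this alternative thus leaned upwards across genes, and list counts against the starting cultures are to be read beside 4837 and 1291.

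**Figure D1:**
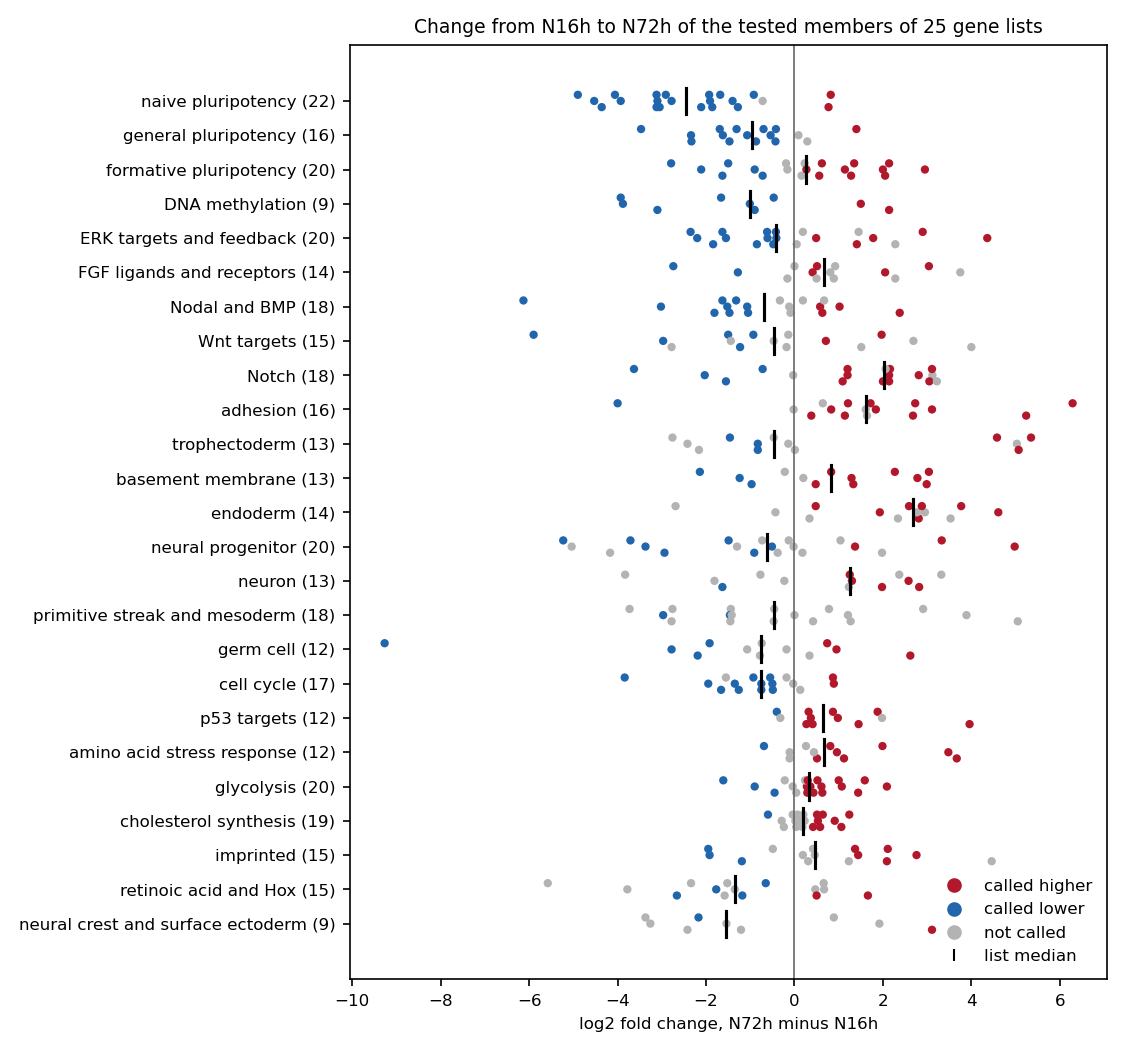
Log2 fold changes from N16h to N72h (x axis) of every tested member of 25 gene lists (y axis, number tested in parentheses), with called genes in red (higher) or blue (lower), others in grey and the list median as a black mark. The naive list has the lowest median (-2.44), and the endoderm, Notch and adhesion lists lie to the right (medians 2.68, 2.03 and 1.62).

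Naive pluripotency genes continued to decline between N16h and N72h. Of 22 listed genes 19 fell and 2 rose, with a median log2 fold change of -2.44 against 0.01 over all genes. Zfp42 (chr8:43295063-43306980 of GRCm38), the gene of the Rex1 reporter and a marker of the naive state, was at 182, 195 and 186 FPKM at N16h and at 12, 11.4 and 11.5 at N72h. It had not been called between 2i and N16h, where its log2 fold change was -0.16, and then fell by 4.06 ± 0.13 (adjusted p = 7.95e-26). Esrrb, an orphan nuclear receptor of the naive network, stood at 50, 46.5 and 50.5 FPKM and then at 6.38, 5.1 and 5.98. Nanog, a homeobox factor, went from 78.1, 81.7 and 86.2 FPKM to 29.7, 31.8 and 34.2, a fall of 1.4 ± 0.11. All 3 genes had replicates that did not overlap.

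Of the 19 that fell, 13 had also been called lower at N16h than in 2i, among them Tfcp2l1, Klf2, Klf4, Tbx3, Prdm14 and Nr5a2. Tfcp2l1, a factor downstream of LIF and WNT signals, averaged 95.5 FPKM in 2i and 19.2, 18.7 and 21.7 at N16h, and was at 2.45, 2.90 and 2.77 at N72h. Nr0b1 (Dax1; chrX:86191764-86195947), a nuclear receptor cofactor, followed another course. It was higher at N16h than in 2i by 0.87 and then showed the largest fall of the list, from 85.7, 82.4 and 75 FPKM to 3.29, 2.31 and 2.76 (4.90 ± 0.16 lower on the log2 scale, adjusted p = 7.57e-26). Zfp57, Lifr and Fgf4 were not called between 2i and N16h, and fell by 2.78, 2.11 and 1.28. Stat3, which transduces the LIF signal, and Jak3, a kinase of the JAK family, were the 2 genes that rose, by 0.82 and 0.77. Both had been lower at N16h than in 2i. Dppa3, a maternal factor, had an adjusted p of 0.226 at FPKM near 1.

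Of 16 genes shared by naive and later pluripotent cells, 13 fell and 1 rose, with a median of -0.97. Against the starting cultures 8 were lower and 3 higher. Pou5f1 (OCT4), a core pluripotency factor in all these states, was at 432, 456 and 454 FPKM and then at 350, 335 and 344, a fall of 0.43 ± 0.09 (adjusted p = 1.26e-04) that was not called against the starting cultures (-0.21, adjusted p = 0.189). Sox2, its partner, fell by 1.62 from 110, 97.9 and 95.2 FPKM to 35.1, 31.8 and 35.0. For both genes every N72h library was below every N16h library.

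Dppa2, a chromatin-associated factor of pluripotent cells, fell by 3.47 ± 0.10 from 114, 107 and 118 FPKM to 11.8, 9.15 and 10.5, having been raised at N16h. Dppa4, its heterodimer partner, fell by 0.87, and Foxd3, Tdgf1 and L1td1 also had their highest level at N16h. Foxd3 fell by 1.69, a call lost against the starting cultures (-0.75, adjusted p = 0.0772). Utf1, a chromatin factor of pluripotent cells, was not called (0.09, adjusted p = 0.676). Lin28b, an RNA-binding protein that blocks let-7 maturation, rose by 1.4.

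**Figure D2:**
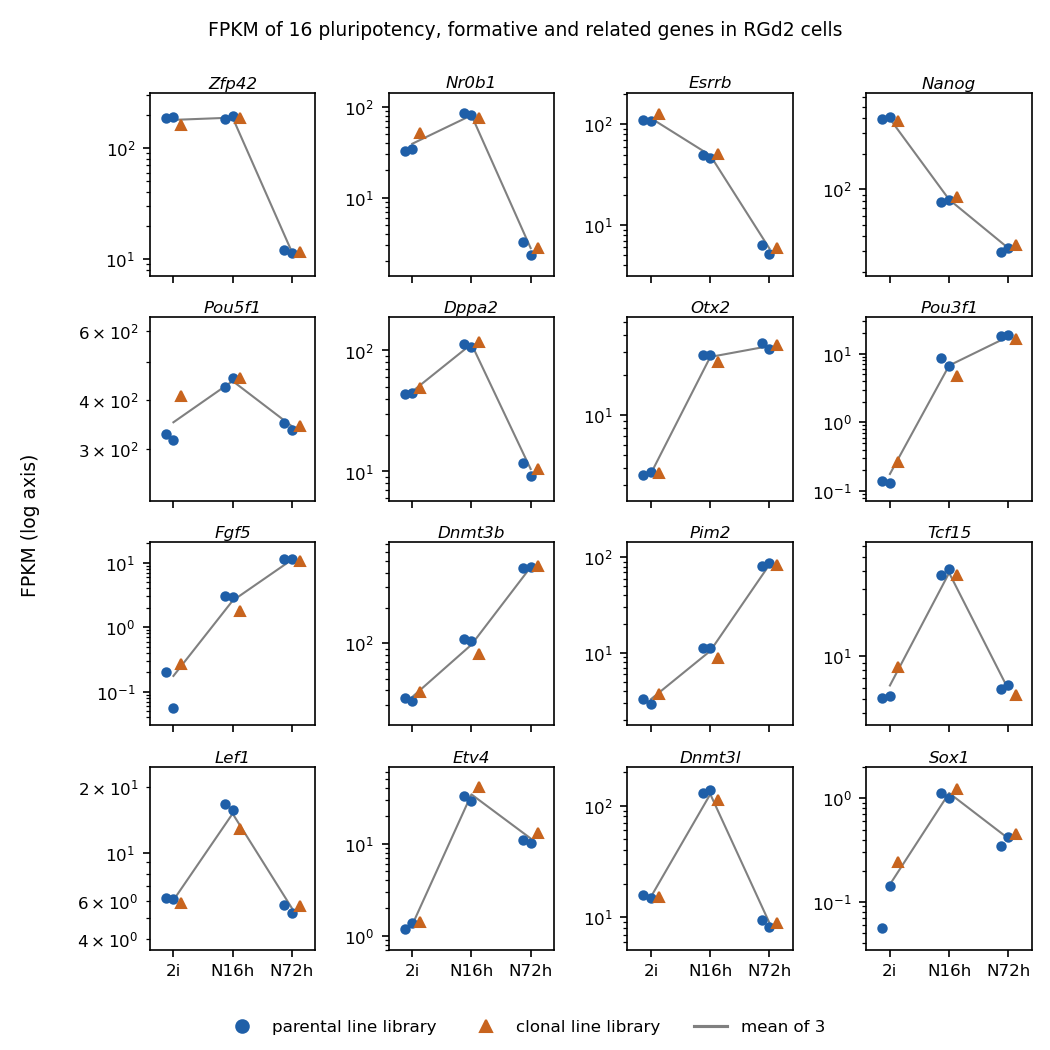
FPKM (log axis) of 16 pluripotency, formative and related genes in 2i, N16h and N72h (x axis), with circles for parental-line libraries, triangles for the clonal-line library and grey lines through the means of 3. Zfp42 stays level from 2i to N16h and is lower at N72h, Nr0b1, Tcf15, Lef1, Etv4 and Dnmt3l are highest at N16h, and Pou3f1, Fgf5, Dnmt3b and Pim2 are highest at N72h.

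Formative genes divided by direction. Of 20 listed, 10 rose and 6 fell, and all 6 that fell had been higher at N16h than in 2i. Relative to the starting cultures 10 were higher and 3 lower. Dnmt3b (chr2:153649450-153687730), a de novo DNA methyltransferase, was at 108, 104 and 80.5 FPKM at N16h and reached 436, 443 and 455 at N72h, a rise of 2.14 ± 0.13 (adjusted p = 1.67e-17). Fgf5, a growth factor of the post-implantation epiblast, rose by 2.05 from 3.03, 2.94 and 1.75 FPKM to 11.3, 11.4 and 10.5. Its call was lost against the starting cultures (1.5, adjusted p = 0.0503). Pim2, a serine/threonine kinase, had the largest rise of the list at 2.95, and Pou3f1 (OCT6) and Sox3 rose by 1.35 and 1.28. Hes6, a bHLH factor, rose by 2.00 without an earlier change.

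Tcf15, a bHLH factor expressed in cells primed to leave the naive state, was at 37.7, 41.3 and 37.6 FPKM at N16h, against a mean of 6.23 in 2i. At N72h it was back at 5.88, 6.3 and 5.37, a fall of 2.79 ± 0.18. Lef1, a nuclear effector of WNT signalling, fell by 1.5, and Wnt8a, Dnmt3a and Grhl2 fell by 2.11, 0.90 and 0.72. The Dnmt3a value was close to 0 against the starting cultures (-0.05, adjusted p = 0.837). Otx2, which directs enhancer activation in formative cells, was at 28.5, 28.5 and 25.3 FPKM and then at 34.7, 31.2 and 33.5, which did not pass the test (0.23, adjusted p = 0.0951) but did with scaling to all genes (TMM, adjusted p = 0.0445). Tcf7l1 (TCF3), a repressor of naive genes, was not called (-0.19, adjusted p = 0.468), but was higher against the starting cultures (0.92, adjusted p = 0.0126).

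Genes of the DNA methylation machinery changed in both directions. Of 9 genes, 7 fell and 2 rose, against 4 and 2 relative to the starting cultures. Dnmt3l, the catalytically inactive cofactor of the de novo methyltransferases, was at 130, 138 and 111 FPKM at N16h and at 9.49, 8.24 and 8.95 at N72h, a fall of 3.88 ± 0.16. Dnmt3b thus rose while Dnmt3l fell, and the replicates of both genes were fully apart. Among the TET dioxygenases, which oxidise 5-methylcytosine, Tet2 fell by 3.93 and Tet1 by 1.66, whereas Tet3 rose by 1.5 from 0.764, 0.761 and 0.770 FPKM to 2.33, 2.18 and 2.19. Uhrf1 and Dnmt1, which maintain methylation at replication, fell by 1.01 and 0.47.

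Targets and feedback regulators of ERK signalling, which is blocked in 2i, were lower more often than higher at N72h. Of 20 listed, 11 fell and 5 rose, and 7 of those that fell had peaked at N16h. Against the starting cultures 3 were lower and 5 higher, where 1291 of the 18892 genes tested were lower and 4837 higher. Spry4, a feedback inhibitor of receptor tyrosine kinase signalling, was at 18.6, 17.5 and 21.2 FPKM at N16h and at 5.03, 5.32 and 6 at N72h, against a mean of 0.0904 in 2i. Etv4, an ETS factor induced by FGF, fell by 1.63 from 32.6, 29.4 and 41.1 FPKM to 11, 10.2 and 13. Its relative Etv5 was called lower by 0.48, and Myc, a growth regulator, by 2.20. Against the starting cultures Spry4 (-0.53, adjusted p = 0.571) and Myc (-0.37, adjusted p = 0.242) lost their calls, and Etv4 (0.51) and Etv5 (0.02) turned sign. Epha2, an ephrin receptor, fell by 2.35.

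Several immediate early genes of the list went the other way, although Ier2 was not called (0.05, adjusted p = 0.725). Egr1, a zinc finger factor induced within minutes by growth factors, was at 0.0919, 0.124 and 0.0676 FPKM at N16h and at 2.14, 2.41 and 1.86 at N72h, a rise of 4.36 ± 0.31. Junb and Ier3 rose by 2.90 and 1.78. Fos (1.45) and Fosl1 (2.28) stayed below the FPKM minimum. Spry1 and Dusp4 rose by 1.41 and 0.49. The level of Dusp6, an ERK phosphatase, did not pass the test (0.19, adjusted p = 0.178).

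Among FGF ligands and receptors, 4 of 14 tested rose and 2 fell, a called share of 42.9% that was near the 39.6% of all genes. Fgf4, the main autocrine FGF of ES cells, was among those that fell, from 80.4, 74.7 and 69.9 FPKM to 33.5, 29.0 and 33.1, and Fgf17 fell by 2.74. The receptor genes Fgfr1 and Fgfr2 rose by 0.41 and 0.51, the latter not called without the clonal N16h library (adjusted p = 0.0758). Fgf13, an intracellular member of the family, rose by 3.04.

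In the Nodal and BMP pathways 9 of 18 genes fell and 4 rose. Inhbb, which encodes an activin subunit, was at 5.1, 5.04 and 7.54 FPKM at N16h and at 0.0874, 0.0733 and 0.0906 at N72h. Its level thus fell by 6.13 ± 0.30 after a rise of 3.67 from 2i. Nodal itself fell by 1.63 from 26.2, 24.8 and 23.9 FPKM to 8.96, 7.86 and 8.13, and Tdgf1 (Cripto), its co-receptor, by 1.47. Id3, a BMP target that restrains bHLH factors, fell by 3.02 and Bmp4 by 1.81. Bmp7 rose by 2.38, and the inhibitors Fst and Lefty1 rose by 1.02 and 0.58, whereas Lefty2 fell by 1.05.

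Of 15 tested WNT targets 5 fell and 2 rose, so that 46.7% were called, against 39.6% of all genes. Notum, a secreted enzyme that inactivates WNT proteins, fell by 5.90 from 31.7, 30.2 and 21.6 FPKM to 0.444, 0.337 and 0.587. Axin2, a widely used WNT reporter gene, fell by 1.23, having been lower at N16h than in 2i, where GSK3 is inhibited. Tcf7 and Nkd1 rose by 0.71 and 1.97.

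Of 18 Notch pathway genes tested, 10 rose and 4 fell, with a median of 2.03. The counts were 11 and 2 relative to the starting cultures. The receptors Notch1, Notch2 and Notch3 rose by 1.20, 1.09 and 2.14, while Notch4 fell by 3.63. Among ligands, Jag1 and Jag2 rose by 1.20 and 2.14, and Dll3 by 2.81, whereas Dll1 had peaked at N16h and fell by 0.72. Hes1, a bHLH repressor and the classical Notch target, was at 1.53, 1.41 and 1.96 FPKM at N16h and at 7.91, 7.25 and 7.14 at N72h. Nrarp, a feedback inhibitor induced by Notch, rose by 3.11 and Lfng, a modifier of the receptors, by 3.05. Rbpj (chr5:53466152-53657362), the DNA-binding mediator of the pathway, moved against them, from 39.9, 40.6 and 40.9 FPKM to 10.4, 10.1 and 10.1, a fall of 2.03 ± 0.21. Its mean in 2i was 12.4. Notch1, Notch2, Notch3, Jag1, Hes1 and Nrarp had all been called lower at N16h than in 2i.

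Most adhesion and epithelial genes rose. Of 16 tested in the adhesion list 11 rose and 1 fell, with a median of 1.62. Cldn6 (chr17:23679365-23682446), a tight junction claudin of early epithelia, was at 3.11, 3.26 and 3.33 FPKM at N16h and at 119, 124 and 134 at N72h, a rise of 5.24 ± 0.22 (adjusted p = 2.76e-22). Cldn7 (chr11:69964779-69967885) had the largest rise of the list, 6.29 ± 0.28, to 37.0, 36.0 and 35.4 FPKM. Cldn3, Cldn4 and Ocln, which encode further tight junction proteins, rose by 3.11, 1.84 and 2.73, and Esrp1, a splicing regulator of epithelial cells, by 2.68.

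Cdh1 (E-cadherin) rose by 1.14 from 72.1, 74.5 and 73.9 FPKM to 160, 175 and 166, and Epcam by 1.21. Cdh2 (N-cadherin) was at 1.11, 1.16 and 0.988 FPKM and then at 1.05, 1.28 and 1.01, which was not called (-0.02, adjusted p = 0.939). Against the starting cultures its value was 0.74 (adjusted p = 0.0308). Zeb1, a repressor of epithelial genes, was the only gene of the list to fall, by 4 ± 0.19. The keratin genes of simple epithelia, taken from the trophectoderm list, rose with the claudins. Krt8 went from 2.15, 2.41 and 2.49 FPKM to 54.5, 59.1 and 60.4, and Krt18 and Krt19 rose by 5.07 and 5.35. Other members of that list, Eomes, Tead4 and Tfap2c, fell by 1.46, 0.83 and 0.83, and Elf5 was at 0 counts in both groups.

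Contractile cytoskeleton genes included Acta1, the named gene with the largest rise of all. This list of 23 was drawn up after the largest changes had been seen and carries no independent weight. Of 22 tested, 17 rose and the other 5 were not called, with a median of 1.85. Acta1 (chr8:123891769-123894751), skeletal muscle alpha-actin, was at 0.0767, 0.0139 and 0 FPKM at N16h and at 23.5, 26.4 and 22.0 at N72h, a log2 fold change of 9.40 ± 0.55. Its counts were 4, 1 and 0 at N16h and 778, 650 and 1316 at N72h.

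Actc1, cardiac alpha-actin, had 3 counts over the N16h libraries and 568 over the N72h libraries, a ratio of 248 (95% exact interval 84.3 to 1200, counting error only). Tagln, an actin-binding protein of smooth muscle, rose by 6.52 from 0.355, 0.345 and 0.762 FPKM to 41.3, 50.1 and 37.5. Cnn1, a calponin, rose by 5.81 and Myl9, a myosin light chain, by 4.71. The ubiquitous actins were not called: Actb had a log2 fold change of -0.10 (adjusted p = 0.397), and Actg1 one of 0.26 (adjusted p = 0.0510). Actg1 passed with TMM scaling (adjusted p = 0.0280) and with DESeq2. Against the starting cultures both passed as higher, Actb with its sign turned (0.37, adjusted p = 0.0342) and Actg1 at 0.65. Srf, the transcription factor that binds CArG boxes in such genes, rose by 0.72 and its coactivators Mrtfa and Mrtfb by 0.36 and 0.33. The last 2 calls were lost when either N72h replicate 2 or either clonal library was left out (adjusted p up to 0.180). Mrtfa and Mrtfb also lost them in the fit to the RGd2 2i, N16h and N72h libraries alone (adjusted p = 0.0794 and 0.146).

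**Figure D3:**
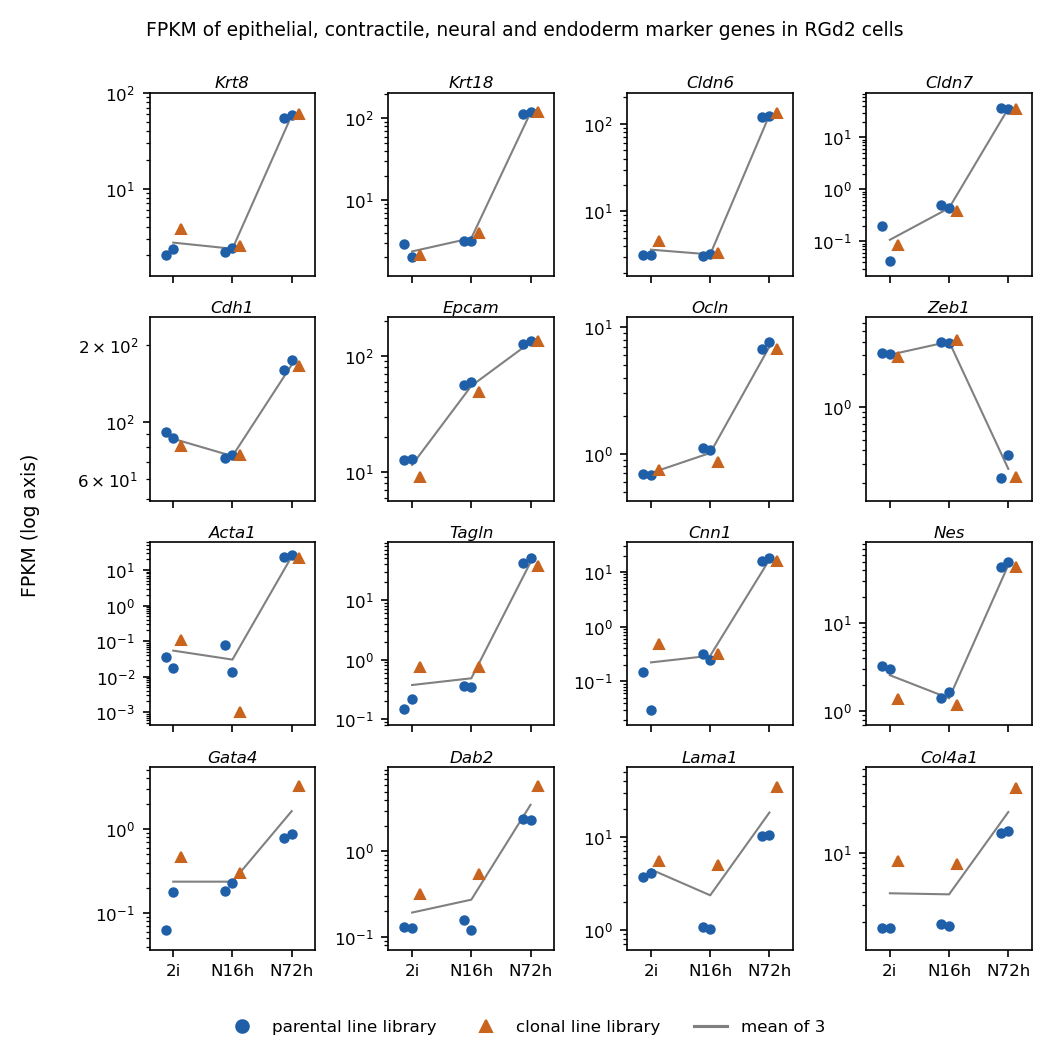
FPKM (log axis) of 16 epithelial, contractile, neural and endoderm marker genes in 2i, N16h and N72h (x axis), with circles for parental-line libraries, triangles for the clonal-line library and grey lines through the means of 3; the clonal N16h value of 0 for Acta1 is drawn at 0.001. The keratin, claudin and contractile genes are highest at N72h with libraries of both lines together, and Gata4, Dab2, Lama1 and Col4a1 are higher in the clonal than in the parental libraries at N72h.

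The CArG box, the binding motif of SRF, was searched by name on both strands of the RefSeq promoters of GRCm38.p6, which span 250 bases before to 50 after each gene start. It was found in 7 of the 18 contractile genes with a promoter sequence, against 488 of 27025 genes (1.81%). That list was chosen after values had been seen, from genes of a kind that SRF binds, so the comparison is no test. The 30-base windows of genes that rose are shown because the motif stands upstream of the start in each, with the box in capitals. A match describes the letters only.
Acta1, chr8:123894829-123894858, minus strand: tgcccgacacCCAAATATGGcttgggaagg
Actc1, chr2:114052903-114052932, minus strand: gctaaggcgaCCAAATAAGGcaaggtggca
Myl9, chr2:156775293-156775322, plus strand: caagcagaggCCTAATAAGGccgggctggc
Cnn2, chr10:79988534-79988563, plus strand: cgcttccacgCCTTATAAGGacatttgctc
Vcl, chr14:20929161-20929190, plus strand: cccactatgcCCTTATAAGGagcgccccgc
Srf, chr17:46556205-46556234, minus strand: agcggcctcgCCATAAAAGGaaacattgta

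The boxes began 73 bases before the start of Acta1, 47 before Actc1, 161 before Myl9, 56 before Cnn2, 227 before Vcl and 62 before Srf, whose promoter held another 82 bases before its start. These genes rose by 9.40, 7.81, 4.71, 2.05, 1 and 0.72. Actg1, which was not called, also held a box, 90 bases before its start.

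The primary transcripts of the pluripotency microRNA clusters changed in opposite directions. The miR-302 cluster and the miR-290 to miR-295 cluster are the main microRNA loci of pluripotent mouse cells, and several of their products share a seed, the bases that pair with target transcripts. Their mature 3p sequences (RefSeq, GRCm38.p6) are shown with the seed, bases 2 to 8, in capitals, since the shared seed links a cluster that rose to one that fell.
miR-302b-3p, chromosome 3: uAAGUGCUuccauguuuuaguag
miR-302d-3p, chromosome 3: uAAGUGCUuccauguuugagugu
miR-367-3p, chromosome 3: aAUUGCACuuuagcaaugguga
miR-291a-3p, chromosome 7: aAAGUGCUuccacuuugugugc
miR-295-3p, chromosome 7: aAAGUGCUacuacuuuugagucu
miR-290a-3p, chromosome 7: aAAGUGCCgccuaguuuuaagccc
miR-293-3p, chromosome 7: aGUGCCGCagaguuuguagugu

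The seed AAGUGCU occurred in 5 of the 12 3p sequences of the clusters, in miR-302b, miR-302d, miR-291a, miR-294 and miR-295. Of the 14 hairpin genes, Mir302a and Mir292 had no mature sequence under a 3p name, so their products were not searched. Both hairpin lists were chosen after values had been seen. Mir302b had 0 counts in each N16h library and 19, 14 and 18 at N72h, at least 22.2-fold higher against a floor of 3 counts over the group. Mir367 had 1, 2 and 0 counts and then 11, 12 and 17, a ratio of 17.4 (95% exact interval 5.55 to 88.1, counting error only). Summed over the 5 hairpins of the cluster, counts were 1, 2 and 0 at N16h and 43, 32 and 58 at N72h. Both tested members of the 5 rose.

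All 6 tested hairpins of the miR-290 to miR-295 cluster fell, with a median of -1.11. Their summed level was 31.2, 41.1 and 30.7 CPM (counts scaled to the gene count total) at N16h and 21.5, 16.3 and 12 at N72h, while the 2i libraries held 19.7, 17.9 and 18.5. Mir291a, Mir290a and Mir291b were called higher at N16h than in 2i. The call of Mir292 was lost in 7 alternatives, among them the fit with the line as a block (adjusted p = 0.0548). Counts on hairpins in rRNA-depleted libraries come from longer precursors and do not measure the mature microRNAs.

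**Figure D4:**
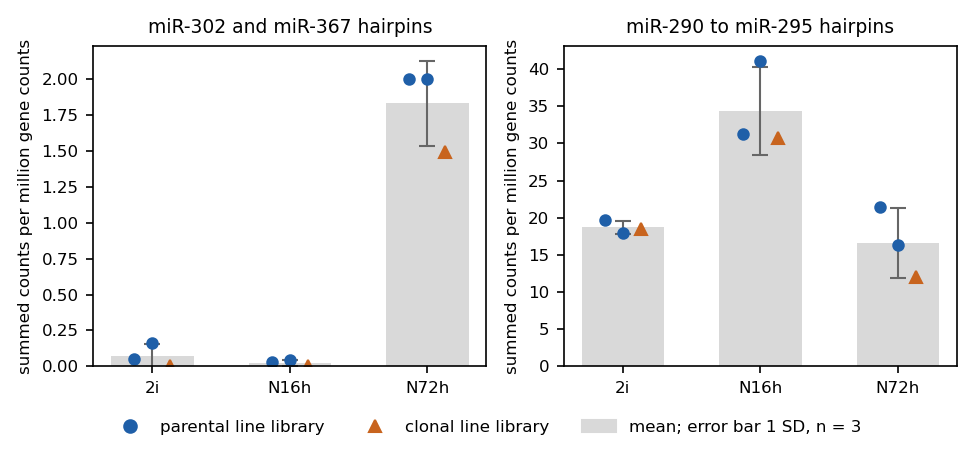
Summed CPM (y axis, from 0) of the hairpins of the miR-302/367 and miR-290 to miR-295 clusters in 2i, N16h and N72h (x axis), with bars for the mean, error bars of 1 SD (n = 3), circles for parental-line and triangles for clonal-line libraries. The first cluster is near 0 until N72h, where it is at 2.00, 2.00 and 1.49, and the second is highest at N16h.

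Apart from those of endoderm, lineage markers were at low levels or changed in both directions. Of 20 tested neural progenitor genes 7 fell and 3 rose, against 4 and 4 relative to the starting cultures. The called share was 50%, where that of all genes was 39.6%. Pax6, a neural patterning factor, had peaked at N16h at 1.75, 1.73 and 0.855 FPKM and was at 0.0993, 0.149 and 0.105 at N72h. Gbx2 and Meis2, regulators of anterior-posterior pattern, fell by 3.37 and 5.23, and Sox1, the earliest marker of neuroectoderm, by 1.49 from FPKM near 1, a value that turned sign against the starting cultures (0.13, adjusted p = 0.895). Nes (chr3:87971078-87980451), an intermediate filament of neural progenitors and other dividing cells, rose by 4.98 ± 0.20 from 1.4, 1.64 and 1.17 FPKM to 43.8, 49.7 and 44.2. Zfp521, a zinc finger factor, and Msi1, an RNA-binding protein, also rose, by 3.33 and 1.37. Zic1 and Fabp7 were at 0 counts in all N72h libraries.

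In the neuron list 5 of 13 tested genes rose and 1 fell (46.2% called, against 39.6% of all genes). Tubb3 rose by 1.25, Gap43 by 2.58 and Elavl3 by 2.82, while Stmn2 fell by 1.63, a call lost against the starting cultures (-0.37, adjusted p = 0.140). Primitive streak and mesoderm markers were at low levels, and of 18 tested 2 fell and 16 were not called. T (brachyury), which marks the streak, was at 0.267, 0.305 and 0.281 FPKM and then at 0.241, 0.0539 and 0.0555, below the FPKM minimum at both times. Eomes and Nkx1-2 fell by 1.46 and 2.97. Of 9 tested neural crest and surface ectoderm markers, Ets1 rose by 3.11 and Grhl3 fell by 2.17.

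Of 14 endoderm markers tested, 7 rose and the other 7 were not called, with a median of 2.68. The called share was 50%, where that of all genes was 39.6%. Against the starting cultures 5 were higher and 0 lower. The lines differed in level. Gata4, an endoderm transcription factor, was at 0.181, 0.230 and 0.299 FPKM at N16h and at 0.785, 0.878 and 3.24 at N72h. The clonal library thus stood at 3.90 times the parental mean at N72h. Cubn, an endocytic receptor of extra-embryonic endoderm, went from 0.0375, 0.0459 and 0.554 FPKM to 2.45, 2.67 and 8.84. Dab2, an endocytic adaptor of that tissue, rose by 3.77. The spike-in-scaled change within the parental libraries was 59.0-fold for Cubn and 16.4-fold for Dab2, and within the clonal pair 16.0-fold and 10.6-fold. The calls of Gata4 and Amn needed the clonal N72h library, without which their FPKM stayed below 1 (log2 fold changes 1.79 and 2.01), and both were lost against the starting cultures.

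Gata6 (1.93, adjusted p = 0.0236) had overlapping replicates and was not called without the clonal N72h library (adjusted p = 0.308), without either parental N16h library (0.0777 and 0.109) or with DESeq2 (0.186). Cer1 was at 0 counts in both groups and Afp in all N72h libraries. The summed FPKM of the 18 listed endoderm genes was 33.7, 34.1 and 39.0 at N16h and 48.4, 50.2 and 101 at N72h, of which Sparc alone gave 36.8, 38.6 and 65.3 at N72h.

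Of 13 basement membrane genes 8 rose and 3 fell. Lama1 and Col4a1, which encode a laminin chain and a type IV collagen chain, were higher in the clonal than in the parental libraries at both times. Lama1 was at 1.06, 1.01 and 4.98 FPKM and then at 10.2, 10.6 and 34.4, a 9.61-fold rise in the parental and a 6.93-fold rise in the clonal line. Col4a1 was at 1.89, 1.84 and 7.70 FPKM and then at 15.8, 16.8 and 45.3. The part of endoderm-like cells in these values was not tested. Lama5, a laminin chain in which the lines were close, rose by 1.29, whereas Nid1, Nid2 and Fn1 fell by 2.14, 0.97 and 1.24.

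Germ cell genes split, with 4 of 12 lower and 3 higher (58.3% called, against 39.6% of all genes). Stra8 (chr6:34920163-34939344), a gatekeeper of meiotic entry that responds to retinoic acid, was at 16.4, 17.6 and 22.8 FPKM at N16h and at 0, 0.0346 and 0.0427 at N72h, a fall of 9.27 ± 0.39. Tex19.1, Rhox5 and Dazl fell by 2.78, 2.19 and 1.92. Sycp3, of the synaptonemal complex, rose by 2.62, and Mael and Ddx4 rose by 0.95 and 0.74. In the retinoic acid and Hox list 4 of 15 fell and 2 rose, against 2 and 2 relative to the starting cultures. Its called share of 40% was near the 39.6% of all genes. Rarg, a retinoic acid receptor, fell by 1.18, with a value of 0.00 against the starting cultures. Dhrs3, which reduces retinaldehyde, fell by 0.65 and turned sign in that alternative (0.56). Crabp2 rose by 1.66.

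Genes of the 2-cell embryo, a list chosen after values had been seen, were near 0 at N72h. Of 13 tested, 7 fell and the other 6 were not called, with a median of -5.08, or -4.47 with genes at 0 counts set at their bound. Their summed FPKM was 39.3, 38.7 and 4.82 at N16h and 1.03, 0.701 and 0.863 at N72h. The clonal library was low at N16h and also in 2i, where the sums were 28.4, 30.4 and 4.26. Zscan4d, of a cluster active in that stage and in a small share of ES cells, fell by 5.89, to 0.0076 of its level in the parental libraries and to 0.193 in the clonal ones. The Zscan4 and Usp17l genes are near-identical copies, and reads counted for single members are uncertain.

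Cell cycle genes mostly fell, 11 of 17 against 2 that rose, with a median of -0.75. The D-type cyclins that drive entry into the cycle all fell, Ccnd2 by 3.84, Ccnd3 by 1.66 and Ccnd1 by 0.93. Ccne1 fell by 1.26. The calls of Ccnd1 and Ccne1 were lost against the starting cultures (adjusted p = 0.0818 and 0.418). In that alternative 3 genes of the list were lower and 4 higher, where all genes tested gave 1291 and 4837. The inhibitors Cdkn1a and Cdkn1b rose by 0.87 and 0.89, and Cdkn1a was still lower at N72h than in 2i (-1.92). Mki67 and Ccna2, markers of cycling cells, were not called (0.13 and -0.03).

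Of 12 p53 targets 9 rose and 1 fell, and of 12 genes of the amino acid stress response 7 rose and 1 fell. Among those that rose, 6 p53 targets and 2 stress response genes had been called lower at N16h than in 2i. In the comparison against the starting cultures 6 and 9 were higher. Pmaip1 (Noxa), which promotes apoptosis, was at 2.44, 2.57 and 3.94 FPKM at N16h and at 47.9, 46.7 and 46.2 at N72h, a rise of 3.96 ± 0.17. Bbc3 (Puma), of the same class, rose by 1.88, and Mdm2, the p53 antagonist, by 0.32. Ddit4, an inhibitor of mTORC1, rose by 3.67 from 4.81, 4.98 and 5.1 FPKM to 61.4, 65.7 and 68.4. Atf3 and Ddit3 (CHOP) rose by 3.48 and 1.99, whereas Atf4, their upstream regulator, was not called (-0.11, adjusted p = 0.326).

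In metabolism, 13 of 20 glycolysis genes rose and 3 fell (80% called, against 39.6% of all genes), with a median of 0.33. With the line as a block 10 rose and 3 fell, and against the starting cultures 9 were higher and 2 lower. Slc2a1, the glucose transporter GLUT1, rose by 1.44 from 118, 114 and 82.9 FPKM to 285, 300 and 296. Aldoc and Ldha rose by 2.09 and 1, and Pfkp, Ldhb and Hk2 fell by 1.61, 0.90 and 0.45. Of 19 cholesterol synthesis genes 8 rose and 1 fell (47.4% called, against 39.6% of all genes). Mvd and Lss, enzymes early and late in the pathway, rose by 1.24 and 1.06.

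Imprinted genes gave 5 rises and 3 falls of 15, and 5 and 1 relative to the starting cultures. The called share was 53.3%, where that of all genes was 39.6%. Rian and Meg3, noncoding RNAs of the Dlk1-Dio3 domain, rose by 2.11 and 2.09, and Mirg, of the same domain, by 1.37. H19 rose by 2.76, which was not called against the starting cultures (1.52, adjusted p = 0.0554). Lines differed here too: Grb10 was at 12.8, 12.4 and 2.47 FPKM and then at 32.0, 32.7 and 13.7. Its call (1.44, adjusted p = 0.0326) was lost without the clonal N16h library (0.167), without either parental N72h library (0.0838 and 0.118) and with DESeq2 (0.0960). Cdkn1c, a maternally expressed cell cycle inhibitor, fell by 1.95 from 25.4, 21.7 and 2.27 FPKM to 7.38, 4.92 and 1.63. Its replicates overlapped, the clonal N16h library lying below both parental N72h libraries.

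Genes that had peaked at N16h are those called higher at N16h than in 2i and lower at N72h than at N16h. Both steps use the N16h libraries, so the counts that follow describe the data without testing them. At the first step 1014 genes were higher (5.37%) and 4388 lower (23.2%) under spike-in scaling, so that 18.8% of calls were rises, and the median gene changed by -0.23. TMM scaling, which centres on all genes, gave 2436 and 3039, or 44.5% rises, with a median of -0.02. Of all genes tested 565 peaked (2.99%) and 1609 were lowest at N16h (8.52%). Under TMM these counts were 1380, with all 565 included, and 1340. With 2i at passage 5 in place of 2i they were 1877 and 1061.

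Of the 1014 genes higher at N16h, 565 (55.7%) fell afterwards, 249 (24.6%) rose further and 200 were not called. The median gene of the 565 was 0.93 above 2i at N16h and then changed by -1.36. At N72h it stood at -0.38 relative to 2i, with quartiles of -1.14 and 0.10. Against 2i, 199 of them (35.2%) were called lower at N72h, 76 (13.5%) higher and 290 neither way. The median of the 565 was -0.20 with TMM. Over all genes tested, the median change from 2i to N72h was -0.25, and -0.04 with TMM. Values against 2i thus leaned downwards across genes under spike-in scaling, and the level of the 565 is to be read beside that.

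**Figure D5:**
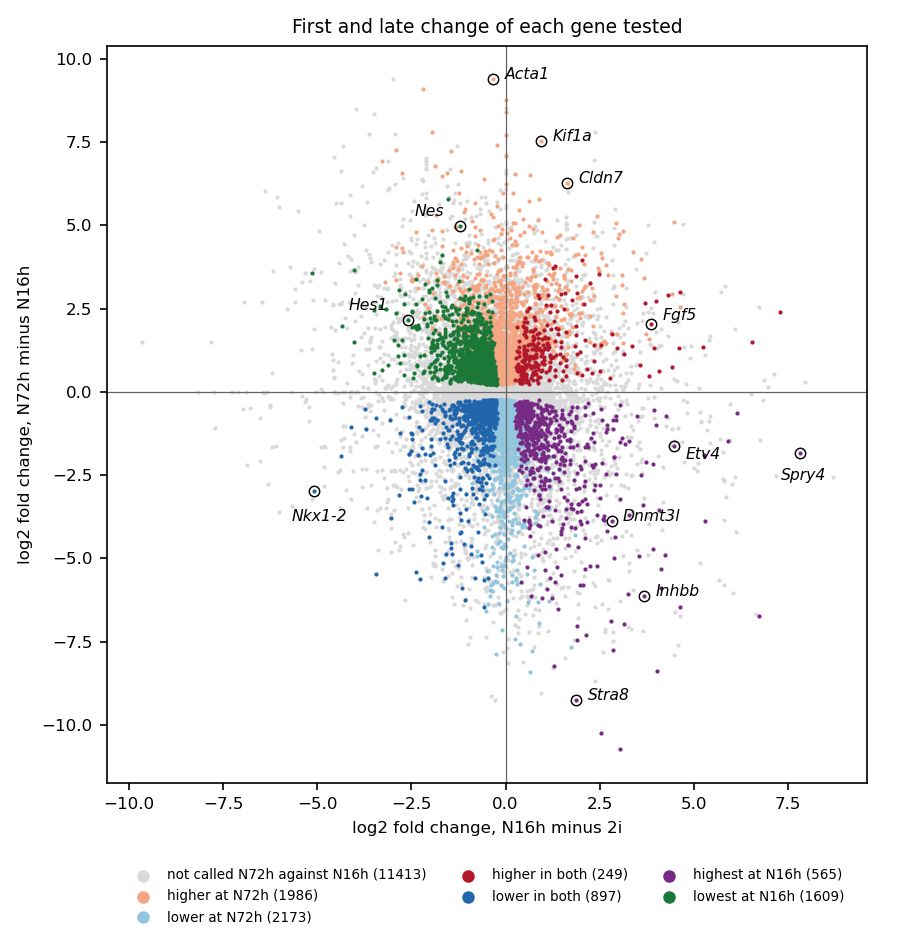
Log2 fold change of each tested gene from 2i to N16h (x axis) and from N16h to N72h (y axis), coloured by the calls in both steps, with numbers of genes in the legend. The 565 genes that peaked lie at the lower right and the 1609 that were lowest at N16h at the upper left; both axes share the N16h libraries.

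By the smaller of the 2 changes, the leading peaked genes were Rhox2-ps, Atp1a4, Nlrc4, Robo4, Prss46, Pax8, Pdyn, Inhbb, Tal2 and Srms. Their N16h libraries held between 1.09 and 7.54 FPKM. Pax8, a paired-box factor of thyroid and kidney, was at 4.34, 4.10 and 3.36 FPKM at N16h, with a mean below 1 in 2i, and at 0.176, 0.165 and 0.136 at N72h. Robo4, a guidance receptor of endothelium, was at 2.47, 2.11 and 3.10 FPKM and then at 0.0438, 0 and 0.0630. Rhox2-ps had 51 counts at N16h and 0 at N72h, at least 13-fold lower, and as a pseudogene of a multigene family its counts are uncertain. The calls of Atp1a4 (adjusted p = 0.157), Tal2 (0.237) and Prss46 (1) were lost against the starting cultures.

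The opposite course was led by Efemp1, Trp53cor1, Uap1l1, Tmem102 and Frmd4b. Efemp1, a matrix glycoprotein, was at 2.6, 2.92 and 1.72 FPKM in 2i, at 0.173, 0.179 and 0.213 at N16h and at 1.92, 3.06 and 2.37 at N72h. Trp53cor1 (lincRNA-p21), a noncoding p53 target, rose by 3.56 after a fall of 5.1. Of the 1609 genes, 424 ended above 2i, 268 below and 917 neither way. Of the 4388 genes lower at N16h, 1609 (36.7%) rose, 897 (20.4%) fell further and 1882 were not called.

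Among the 249 genes higher in both steps, Tmem54, Car4, Thbs1, Esrp1 and Arl4c led, Tmem54 without a call against the starting cultures (adjusted p = 0.115). Thbs1, an adhesive matrix glycoprotein, was at 0.227, 0.242 and 0.110 FPKM in 2i, at 5.28, 4.81 and 2.49 at N16h and at 27.4, 31.4 and 28.1 at N72h. Arl4c, a small GTPase, rose by 2.48 and then by 3.54. The 897 genes lower in both steps were led by Slc15a1, Nkx1-2, Prdm14, Ntn1 and Tfcp2l1. Ntn1, a secreted guidance cue, fell by 2.93 from 5.1, 5.22 and 5.26 FPKM to 0.711, 0.795 and 0.639.

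Across all genes, the largest rises after Acta1 included Kif1a, Klhl14 and 4 genes with 0 counts at N16h. Kif1a (chr1:93015464-93101951), a kinesin that carries synaptic vesicle precursors, was at 0.221, 0.234 and 0.190 FPKM at N16h and at 40.4, 41.7 and 43.0 at N72h, a rise of 7.53 ± 0.18 (adjusted p = 6.21e-30). Stmn4, Rtn4r, Tceal6 and Ttc39aos1 were at least 83.2-, 68.4-, 51.0- and 34.9-fold higher at N72h. Their N72h libraries held between 0.873 and 1.89 FPKM. Stmn4 was not called with DESeq2 (adjusted p = 0.219), and the other 3 lost their calls against the starting cultures.

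The largest falls were led by Dgkeos, which had 253, 432 and 155 counts at N16h and 0 in every N72h library, at least 214-fold lower. Its name marks it as antisense to Dgke. Crisp1, Prss46, Platr29 and Rhox7-ps2 were also at 0 at N72h, at least 44.6-, 40.5-, 27.5- and 16.1-fold lower. Rhox7-ps2, like Prss46, lost its call against the starting cultures. Halr1 (chr6:52102949-52113684), a long noncoding RNA, was the most abundant of this group. It was at 94.3, 97.5 and 99.9 FPKM at N16h, against 23.7, 21.7 and 20.3 in 2i, and at 0.900, 0.953 and 0.576 at N72h, a fall of 7.04 ± 0.28. Crisp1, a secreted sperm protein, differed between lines at N16h (1.35, 1.5 and 0.336 FPKM) and fell short of the FPKM minimum when either parental N16h library was left out.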

How the data were processed

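Total RNA of 32 mouse ES cell libraries was rRNA-depleted (Ribo-Zero) and made into stranded libraries with added ERCC spike-ins; the label's molecule field instead reads polyA RNA. After trimming (Trim Galore), the authors mapped reads by TopHat2 onto GRCm38/mm10 with ERCC sequences, and counted unique strand-specific reads per gene (Gencode M14) with featureCounts; versions are not given in the sources used here. The deposited values are raw counts per gene, unnormalized. All columns of per-sample values matched labelled samples. No use of the kit's molecular labels is stated, so intervals cover counting error only.

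From these counts, edgeR 4.0.16 (R 4.3.3) fitted a quasi-likelihood model to all 32 libraries with one term per group and spike-in size factors, the samples and scaling following the study's methods, on 18892 of 51826 genes kept by edgeR's expression filter. Adjusted p-values are Benjamini-Hochberg. FPKM was computed here from gene counts and exon length. Genes were called at adjusted p below 0.05 where the mean FPKM of N16h or N72h reached 1. DESeq2 1.42.0, the study's own tool, was an alternative, as were other scalings, filters, sample sets and starting cultures. A count of 0 was bounded by 3 counts over the group.

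Named genes were, per list, up to 5 called members with replicates apart and the largest change, others that a statement needed, and the leading genes by change overall and over both steps. Further members, 35 single genes and 4 lists were chosen after their values were seen. Members and lists were chosen with earlier results of these data known. The fit was tested on simulated data. The study's methods give fewer replicates for N16h than the labels, which were followed. The numbers of the samples are not shared between groups, and the line served as the replicate block. Some genes that the naming rule selected are not reported here.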

Additional observations from a re-analysis of the deposited data

How the results depend on the processing

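Leaving out each library in turn gave 3386 to 3785 genes higher and 3137 to 3566 lower at N72h, 479 to 827 that peaked at N16h (827 without parental 2i replicate 1), 1216 to 1941 lowest there, a median level of the peaked genes against 2i of -0.45 to -0.22, and a spike-in difference of -0.00405 to 0.0755, reversed without N72h replicate 1. Requiring a fold of 2 left 1732 higher, 1227 lower, 207 peaked, 223 lowest and a level of -0.73. TMM gave 1380 peaked and -0.20, median-of-ratios factors on genes 1540 and -0.18, and a fit to the 2i, N16h and N72h libraries alone 1013 lowest and -0.43. With the other starting culture 1291 were lower, 1877 peaked, 1061 lowest and the level was -0.10; the median gene differed by -0.37 between these cultures under spike-in scaling and by -0.02 under TMM. The causes were not tested.

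Of 216 named genes, 212 kept direction and call with DESeq2 and 214 with TMM, against 184 with the other starting culture. There 24 lost a call in the same direction and 4 gained one. Dhrs3 (0.56), Etv4 (0.51), Etv5 (0.02) and Sox1 (0.13) turned sign and also lost their calls. Of the genes that gained a call, Actb (0.37), Cdh2 (0.74) and Tcf7l1 (0.92) had turned sign. With the line as a replicate block 3584 genes were higher and 3382 lower, and of 212 named genes fitted 1, Mir292, lost its call (adjusted p = 0.0548). Same-numbered samples do not exist, so the block rests on the line. Besides the losses given above, Wnt8a fell short of the FPKM minimum without N16h replicate 1, and Usp17le without either parental N16h library.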
